A study of Mus musculus with 38 samples.

Results

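The annexins were followed through livers labelled as induced for Myc, YAP or both. The 10 members (Anxa1, Anxa2, Anxa3, Anxa4, Anxa5, Anxa6, Anxa7, Anxa8, Anxa11 and Anxa13) were chosen by gene symbol alone, out of 21644 genes in each of 2 tables of RPKM (a read density per length of gene and depth of library), and all 10 were present in both. Of the 38 mouse liver RNA libraries, 17 came from R26-rtTA mice, in which the doxycycline-dependent activator rtTA sits at the Rosa26 locus and is not tied to a liver cell type. Their groups were wild type (WT, n = 4), tet-Myc (n = 4), tet-YAP (n = 6) and tet-Myc/YAP (n = 3), the transgenic livers after 2 days of induction. The other 21 came from LAP-tTA mice, in which the liver activator promoter LAP drives tTA, and comprised WT (n = 3), tet-Myc (n = 3), tet-YAP (n = 4) and tet-Myc/YAP (n = 3), the transgenic livers after 4 weeks of induction, and tumors of tet-YAP mice (n = 8). All R26 groups share R26-rtTA and all LAP groups share LAP-tTA. The tet-YAP transgene is a Col1A1 insertion that encodes a YAP with a serine replaced, a form that escapes inhibition by the Hippo kinases. The labels give no age, do not say how long the tumors had been induced, and do not say whether libraries or tumors came from separate animals, so the p-values below measure the spread between libraries, which may in part be technical.

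Annexins are proteins that bind acidic phospholipids in the presence of calcium, through a conserved core of repeats, and so attach to the inner face of the plasma membrane and to endosomes. Their variable N-terminal ends bind partners, among them S100A10 for annexin A2 and S100A11 for annexin A1, and the family takes part in membrane repair, vesicle traffic and the control of inflammation. YAP is a coactivator that reaches DNA through TEAD factors, whereas Myc binds E-boxes together with Max.

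The promoters of Anxa1, Anxa2 and Anxa5 are shown because these genes rose in YAP-driven livers or tumors, and the letters that a TEAD factor, AP-1 or Myc could read can be looked up in them. Each stretch is the 250 bases before the annotated start in RefSeq (build GRCm38.p6, whereas the RPKM rest on mm9), written 5' to 3' on the strand of the gene. Capitals mark matches to 4 motifs. The core motif of TEAD factors was searched as CATTCC on both strands. The motif of AP-1 was searched as TGANTCA on both strands, and the E-box that Myc binds was searched as CACGTG, which reads the same on both. The TATA box was searched as TATAAA on the sense strand alone, and none of these matches overlapped another. The positions are chr19:20390672-20390921 on the minus strand for Anxa1, chr9:69453433-69453682 on the plus strand for Anxa2 and chr3:36475888-36476137 on the minus strand for Anxa5.
Anxa1: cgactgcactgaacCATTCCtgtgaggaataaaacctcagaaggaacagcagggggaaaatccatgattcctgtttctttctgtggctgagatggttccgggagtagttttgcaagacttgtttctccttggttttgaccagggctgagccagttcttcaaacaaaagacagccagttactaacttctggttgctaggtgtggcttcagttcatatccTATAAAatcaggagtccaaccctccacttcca
Anxa2: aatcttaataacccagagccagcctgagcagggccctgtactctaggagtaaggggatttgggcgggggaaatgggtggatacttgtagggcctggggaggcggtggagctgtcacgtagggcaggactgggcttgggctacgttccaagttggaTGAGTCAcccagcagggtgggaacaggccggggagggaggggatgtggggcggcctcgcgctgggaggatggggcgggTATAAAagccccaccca
Anxa5: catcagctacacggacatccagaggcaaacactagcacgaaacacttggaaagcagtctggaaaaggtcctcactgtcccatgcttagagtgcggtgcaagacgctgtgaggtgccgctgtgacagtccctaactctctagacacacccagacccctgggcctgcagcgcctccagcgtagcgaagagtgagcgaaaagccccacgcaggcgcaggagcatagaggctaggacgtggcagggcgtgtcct
The Anxa1 promoter held 1 CATTCC that began 236 bases before the start and 1 TATAAA that began 32 bases before it. Anxa2 held 1 AP-1 match at 95 bases and 1 TATAAA at 17 bases before the start, and Anxa5 held none of the 4 motifs. Of 32851 mouse promoters of this length, 12.6% held the TEAD motif, 6.75% the AP-1 motif, 6.02% the E-box and 7.59% TATAAA. RefSeq promoters were matched for 7 of the 10 members, with 9 entries in all. Among the other entries (Anxa4, Anxa7, Anxa8 and Anxa11), the only match was 1 E-box at 113 bases before one of the annotated starts of Anxa7. These matches describe letters and not binding.

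By the steps between low values, the libraries held 23680000 to 56810000 reads, the tumors being sequenced at 41160000 to 56810000. At that depth 1 read was worth 0.00581 to 0.0352 RPKM of an annexin. The sixth-highest gene of every library lay at 1447 to 1721 reads per kilobase, so abundant genes met a common ceiling. Anxa5 reached up to 56.0% of it and Anxa3 up to 44.2%, and differences of genes this close to it may be understated. Mouse Myc was read first as a check of the labels. It stood at 1.98, 2.68, 3.5 and 0.609 RPKM in the libraries labelled R26 tet-Myc against 0.522 to 0.767 in R26 WT, so 1 of these 4 libraries lay at the WT level. In the libraries labelled LAP tet-Myc it stood at 1.87, 1.10 and 0.913, within the 0.630 to 3.20 of LAP WT. Yap1 reached a log2 difference of 0.5 in none of the 15 comparisons, and in the LAP tet-YAP and tet-Myc/YAP livers and both R26 groups with the tet-YAP transgene its libraries overlapped those of WT. Whether reads of the transgenes were counted in these rows is not given in the sources used here. The tet-YAP transgene therefore could not be checked in any group, nor Myc in R26 tet-Myc 4 and LAP tet-Myc. Values of Myc in the tet-Myc/YAP groups are not given here, and all groups are named by their labels.

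In livers of WT mice, Anxa6, Anxa5, Anxa7 and Anxa4 were the abundant members. Anxa6, a large annexin with a longer core than the others, stood at 13 ± 0.985 RPKM (SD, n = 3) in LAP WT and made up 31.3% of the summed annexin RPKM. Anxa7, the founding member once named synexin, stood at 8.38 ± 2.59, Anxa5, the phosphatidylserine-binding protein used as a probe of dying cells, at 7.74 ± 1.21 and Anxa4, an annexin of epithelia, at 6.05 ± 1.16 (SD, n = 3 each). The libraries of Anxa7, Anxa5 and Anxa4 overlapped, so their order in LAP WT was not beyond the spread. Anxa2 (2.26 ± 0.419), Anxa11 (2.08 ± 0.383) and Anxa3 (1.01 ± 0.275) formed a middle tier, in which Anxa2 and Anxa11 overlapped. Anxa1 (0.5 ± 0.147), Anxa13 (0.452 ± 0.126) and Anxa8 (0.0282 ± 0.00552) were near the floor. In R26 WT the order was the same but for Anxa5, which at 10.9 ± 1.14 RPKM (SD, n = 4) stood above Anxa7 at 8.73 ± 0.463 (SD, n = 4). Levels are compared between genes because RPKM are per length. For the tests, values were taken as log2(RPKM + 0.5), and a gene was called at an adjusted p under 0.05 (limma, Benjamini-Hochberg over all genes tested) with a log2 difference of 0.5 or more in either direction. The pseudocount shrinks the log2 difference of genes with low RPKM. After a filter at 1 RPKM in at least 3 libraries, 9 members were tested in LAP (not Anxa8) and 7 in R26 (not Anxa1, Anxa8 or Anxa13). Anxa1 passed this filter in LAP mainly through the tumors, and Anxa13 through the tumors and tet-Myc/YAP livers, where they were high, so that counts that include them are no support for a rise of the family.

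In LAP tet-YAP livers, labelled as 4 weeks of induction, Anxa2, Anxa3 and Anxa5 rose against WT. This comparison addressed the tet-YAP transgene without tet-Myc. Anxa2, the annexin that carries S100A10 and binds plasminogen and tissue plasminogen activator at cell surfaces, stood at 1.98, 2.75 and 2.07 RPKM in LAP WT and at 8.08, 5.48, 7.10 and 7.16 in LAP tet-YAP. The groups did not overlap (22.5% of all genes stood higher without overlap), and the difference was 1.43 ± 0.24 (log2, SE, adjusted p = 0.000551), a ratio of means of 3.07. Anxa5 went from 9.12, 7.24 and 6.85 RPKM to 22.6, 17.1, 17.5 and 18.3, again with no overlap (log2 difference 1.23 ± 0.17, adjusted p = 6.59e-05). Anxa3, which in humans is abundant in neutrophils, went from 1.3, 0.968 and 0.756 RPKM to 3.59, 2.75, 3.48 and 3.07 (log2 difference 1.31 ± 0.31, adjusted p = 0.00525). These were 3 of 9 members tested, against 11.5% of all genes called higher, and no member was called lower against 15.3% of all genes. With quantile normalization the share of higher among called genes went from 42.8% to 55.3%. The median log2 difference was 0.37 over the 9 members and -0.10 over all genes. Anxa4 stood at 7.95 ± 1.26 RPKM (SD, n = 4) against 6.05 ± 1.16 and was not called (log2 difference 0.37 ± 0.17, adjusted p = 0.0984). Anxa13 stood at 0.327, 0.323, 0.416 and 0.793 RPKM, in the range of WT but for 1 library, with a log2 difference of 0.00 ± 0.45. Only 1 tet-YAP library carries Xist, beside 2 of WT, so in fits on libraries with Xist the tet-YAP group is a single library that is assumed to vary like the other groups. There the log2 differences were 1.05 for Anxa2 (adjusted p = 0.367), 1.26 for Anxa3 (adjusted p = 0.585) and 1.22 for Anxa5 (adjusted p = 0.0125).

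**Figure D1:**
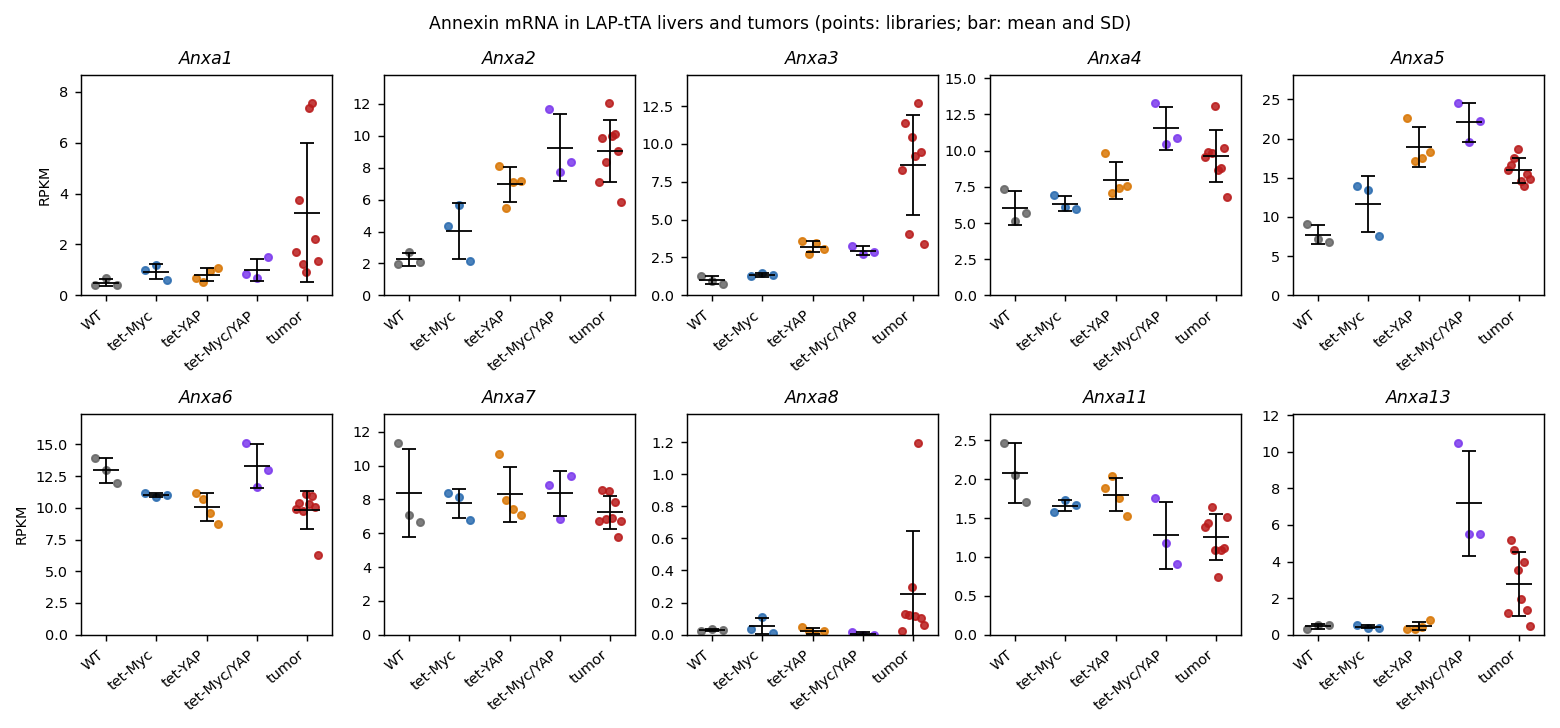
RPKM of the 10 annexins in each LAP library (points) by group, with the mean and SD. Anxa2 and Anxa5 stood higher in every tet-YAP, tet-Myc/YAP and tumor library than in every WT library, whereas Anxa13 was above 5 RPKM in the tet-Myc/YAP livers and at 0.468 to 5.15 in the tumors.

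With Myc and YAP together for 4 weeks, 5 annexins were higher than in WT and 1 was lower. The 5 include Anxa13, which passed the filter through these livers and the tumors. Their count is no support for a rise of the family. Anxa13, which is best known from epithelia of the gut and kidney, went from 0.307, 0.533 and 0.515 RPKM in LAP WT to 10.5, 5.49 and 5.53. The groups were far apart, with a ratio of means of 15.9 and a log2 difference of 2.96 ± 0.48 (adjusted p = 9.07e-05). Anxa2 rose to 11.7, 7.74 and 8.34 RPKM (log2 difference 1.81 ± 0.26, adjusted p = 2.65e-05). Anxa5 rose to 24.5, 19.6 and 22.2 RPKM, the highest group mean of any annexin here (log2 difference 1.46 ± 0.18, adjusted p = 5.19e-06). Anxa4 rose to 13.3, 10.5 and 10.9 RPKM from 7.35, 5.11 and 5.68 (log2 difference 0.89 ± 0.18, adjusted p = 0.000742), and Anxa3 to 3.27, 2.75 and 2.86 RPKM (log2 difference 1.21 ± 0.34, adjusted p = 0.00719). In each of these 5 genes the lowest tet-Myc/YAP library lay above the highest WT library, as in 33.6% of all genes. Anxa11, an RNA-granule tether of lysosomes that binds the calcium sensor Pdcd6, fell by 0.55 (log2, SE 0.20, adjusted p = 0.0299), from 2.47, 2.06 and 1.71 RPKM to 1.76, 1.18 and 0.910, with overlapping libraries. Of all genes, 22.5% were called higher and 14.0% lower, and with libraries rescaled by their median ratio the share of higher among called genes went from 61.6% to 49.2%. The 6 member calls were all kept under that rescaling. The call of Anxa3 was lost with quantile normalization (0.77, adjusted p = 0.0745) and on libraries with Xist alone (1.37, adjusted p = 0.0695), where that of Anxa11 was lost too (-0.29, adjusted p = 0.479). The call of Anxa11 was lost on leaving out any 1 of 4 libraries, with log2 differences of -0.44 without WT 1, -0.55 without WT 2, -0.52 without tet-Myc/YAP 2 and -0.40 without tet-Myc/YAP 3.

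Anxa13 and Anxa4 were also higher in tet-Myc/YAP than in tet-YAP livers, which were 2 of 9 members against 20.5% of all genes. Anxa13 passed the filter through the tumors and the tet-Myc/YAP livers. Counts that hold it are no support for a rise of the family. For Anxa13 the log2 difference was 2.96 ± 0.45 (adjusted p = 0.000192), and for Anxa4 it was 0.51 ± 0.17 (adjusted p = 0.0261). The call of Anxa4 rested on single libraries, with 0.46, 0.48 and 0.49 without tet-YAP 2, 3 and 4 and 0.41 without tet-Myc/YAP 1. After rescaling by the median ratio, which moved the share of higher among called genes from 70.8% to 47.3%, it was lost (0.32) and that of Anxa13 was kept (2.76). Against LAP tet-Myc, 27.7% of all genes were called in either direction, and 2388 of 12591 genes were called higher. Of the members, 5 of 9 were higher in tet-Myc/YAP. They were Anxa13 (2.99 ± 0.48, adjusted p = 0.000137), Anxa2 (1.16 ± 0.26, adjusted p = 0.00257), Anxa5 (0.93 ± 0.18, adjusted p = 0.00082), Anxa4 (0.81 ± 0.18, adjusted p = 0.00247) and Anxa3 (0.90 ± 0.34, adjusted p = 0.0477). That of Anxa3 was lost on leaving out any 1 of the 6 libraries (0.84 to 0.95). Rescaling moved the share of higher among called genes from 68.5% to 52.4% here and kept all 5 calls. These comparisons share the tet-Myc/YAP libraries with the one against WT.

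The interaction asked whether the effect of Myc in the presence of YAP differed from its effect alone. In LAP it was called for Anxa13 only among the 9 members (2.99 ± 0.66, adjusted p = 0.0122), against 15.7% of all genes called in either direction. The call was lost without tet-Myc/YAP 1, the library at 10.5 RPKM (2.70, adjusted p = 0.052). Among libraries with Xist, tet-YAP and tet-Myc are each a single library, and the value there was 3.52. The call was kept after rescaling by the median ratio (2.79), where the share of higher among called genes went from 76.3% to 58.7%. Anxa6 had an interaction of 0.61 ± 0.22 (adjusted p = 0.0643). It stood at 13.3 ± 1.74 RPKM in tet-Myc/YAP, 10.1 ± 1.10 in tet-YAP, 11 ± 0.152 in tet-Myc and 13 ± 0.985 in WT (SD, n = 3, 4, 3 and 3). For the other 7 members the interaction lay between -0.41 and 0.44 and was not called. Myc could not be checked in LAP tet-Myc, so its effect alone is read by label.

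In LAP tet-Myc livers no annexin was called against WT by limma, with 2 of 9 at an unadjusted p under 0.05. Only 0.0238% of all genes were called in this comparison, that is 3 genes of 12591. Anxa2 stood at 4.32, 5.66 and 2.17 RPKM and Anxa5 at 14.0, 13.5 and 7.58, so in both genes 2 libraries lay above all WT libraries and the third lay among them. The log2 differences were 0.65 ± 0.26 for Anxa2 (adjusted p = 0.308) and 0.53 ± 0.18 for Anxa5 (adjusted p = 0.26). Without LAP tet-Myc 3 both were called, at 0.99 and 0.80. That library is the only LAP tet-Myc library with Xist, which 2 of the 3 LAP WT libraries carry. The parts of sex and of that library cannot be told apart there.

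In tumors of tet-YAP mice, 6 of 9 members tested were higher than in LAP WT and 1 was lower, while 21.5% of all genes were called higher and 31.3% lower. The median log2 difference was 1.0 over the members and -0.14 over all genes. The count and median hold Anxa1 and Anxa13, which passed the filter mainly through groups where they were high. The count and median are therefore no support for a rise of the family. Anxa3 changed by 2.50 ± 0.28 (log2, SE, adjusted p = 3.94e-07), from 0.756 to 1.3 RPKM in WT to a lowest, median and highest tumor of 3.42, 9.36 and 12.7. All 8 tumors lay above all WT livers, as in 17.8% of all genes, and the ratio of means was 8.55. Anxa2 stood at 5.88, 9.42 and 12 RPKM (lowest, median and highest), at a log2 difference of 1.77 ± 0.22 (adjusted p = 1.26e-06). Anxa5 stood at 14.0, 15.7 and 18.7 RPKM, at 1.0 ± 0.15 (adjusted p = 1.37e-05). Both were above WT in 8 of 8 tumors. Anxa4 was above WT in 7 of 8, at 6.79, 9.71 and 13.1 RPKM (log2 difference 0.62 ± 0.15, adjusted p = 0.00136).

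Anxa1, an inhibitor of phospholipase A2 and a ligand of formyl peptide receptors that restrains neutrophils, rose in tumors. It stood at 0.418, 0.670 and 0.411 RPKM in LAP WT and at 0.905, 1.95 and 7.54 (lowest, median and highest) in tumors, with no overlap (log2 difference 1.61 ± 0.42, adjusted p = 0.0027). The other LAP groups lay between, at 0.921 ± 0.294 with Myc, 0.815 ± 0.251 with YAP and 1.01 ± 0.427 with both (SD, n = 3, 4 and 3), and their libraries overlapped each other. None of these 3 groups was called against WT (log2 differences of 0.39 to 0.57). Anxa13 stood at 0.468, 2.74 and 5.15 RPKM in tumors and was above WT in 7 of 8 (log2 difference 1.57 ± 0.40, adjusted p = 0.00209). Anxa11 was below WT in 8 of 8 tumors (30.2% of all genes stood lower without overlap), at 0.739, 1.25 and 1.65 RPKM (log2 difference -0.57 ± 0.16, adjusted p = 0.00493). Its call was lost without WT 1 (-0.46), without tumor 5 (-0.50), and with libraries rescaled by their median ratio (-0.47). Anxa6 and Anxa7 were not called (-0.40 ± 0.13 and -0.17 ± 0.16). All 8 tumors carried Xist, as did 2 of the 3 WT livers. Among libraries with Xist, 5 of the 6 members called higher were still called, and Anxa13 was not (1.46, adjusted p = 0.0516).

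**Figure D2:**
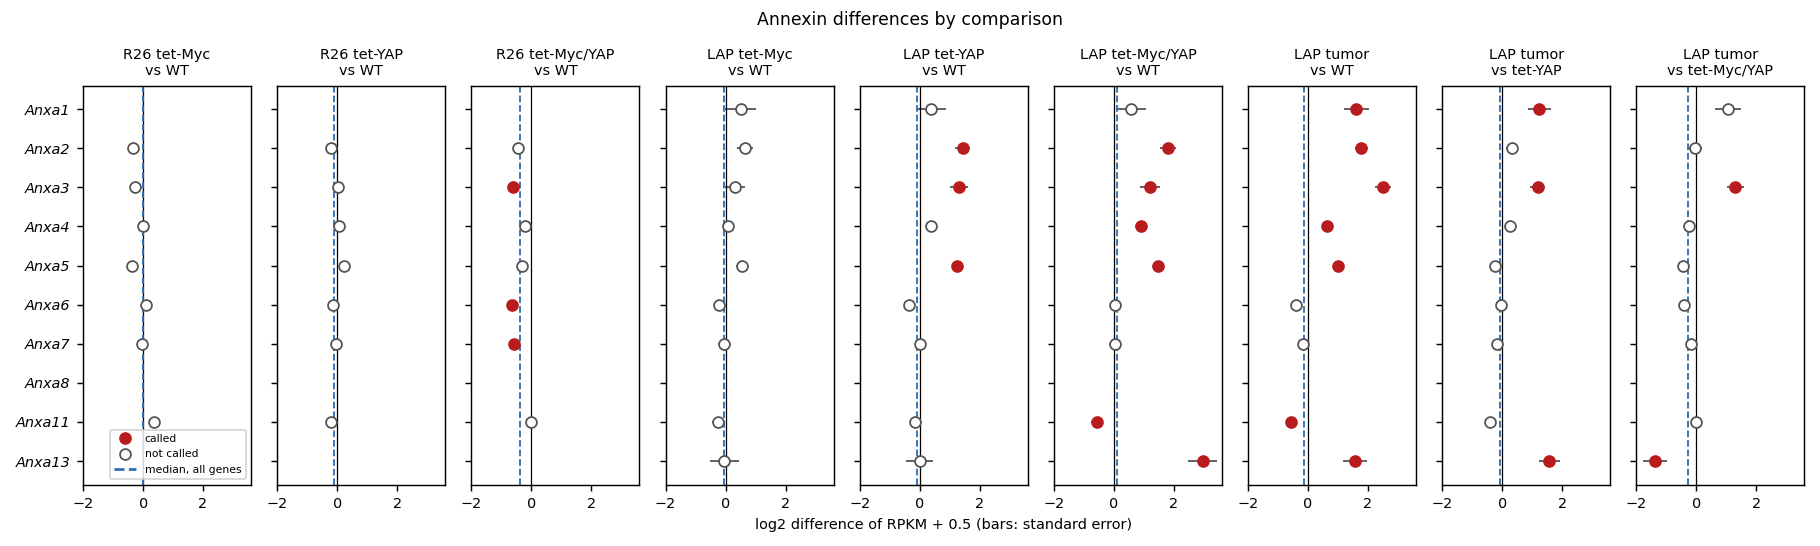
Log2 differences of RPKM + 0.5 with their standard errors for the annexins tested, in each transgenic group against its WT and in tumors against the LAP tet-YAP and tet-Myc/YAP livers. Filled red points were called, and the dashed line is the median of all genes. It lay at -0.39 in R26 tet-Myc/YAP, where the 3 called annexins were lower in the values as deposited and none was called after rescaling by the median ratio, and at -0.10 in LAP tet-YAP, where 3 were higher.

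Against LAP tet-YAP livers, the tumors were higher in Anxa13 (1.57 ± 0.36, adjusted p = 0.0024), Anxa1 (1.23 ± 0.38, adjusted p = 0.018) and Anxa3 (1.19 ± 0.25, adjusted p = 0.00116), which were 3 of 9 members against 9.89% of all genes. The tumors above every tet-YAP library numbered 7 of 8 in each of these genes. The count of 3 holds Anxa13 and Anxa1, which passed the filter mainly through groups where they were high. It is no support for a rise of the family. Anxa2 (0.34 ± 0.20) and Anxa5 (-0.23 ± 0.14) were not called. The call of Anxa1 was lost without tet-YAP 1 (1.18) or tet-YAP 2 (1.12). On libraries with Xist, where tet-YAP is again the single library, the log2 differences were 1.77, 1.55 and 1.38 in the same order, with none called. Against tet-Myc/YAP livers, Anxa3 was higher in tumors (1.29 ± 0.28, adjusted p = 0.00162; 6.57% of all genes were called higher) and Anxa13 was lower (-1.39 ± 0.40, adjusted p = 0.00976; 26.4% were called lower). All 8 tumors lay above all 3 tet-Myc/YAP livers in Anxa3 (2.92% of all genes) and below them in Anxa13 (21.9%). Without tet-Myc/YAP 1 the call of Anxa13 was lost (-1.10). Rescaling by the median ratio moved the share of higher among called genes from 19.9% to 53.2% in this comparison and kept both calls. The 3 comparisons of tumors share the tumor libraries.

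The 8 tumors differed widely among themselves in Anxa1, Anxa8 and Anxa13. Anxa1 stood at 7.34 and 7.54 RPKM in tumors 5 and 6, at 3.74 in tumor 2 and at 0.905 to 2.20 in the other 5. Anxa13 stood at 5.15, 4.61, 4.00 and 3.54 RPKM in tumors 2, 3, 6 and 4 and at 0.468 in tumor 8. Anxa8, an annexin known from skin and other epithelia, was at most 0.136 RPKM in all other groups and at 0.0207 to 0.299 in 7 tumors, but at 1.2 in tumor 6, where it rested on an estimated 128 reads. Anxa3 was low in tumors 8 and 3, at 3.42 and 4.07 RPKM, and at 8.28 to 12.7 in the other 6. Tumor 8 was the lowest for Anxa2, Anxa3, Anxa4, Anxa6 and Anxa13 and held 47.3 RPKM of annexins in all, against 61.9 to 79.6 in the other 7. Its total RPKM of all genes was also the lowest, at 49933 against 60201 to 68775 in the other 7. Low values in tumor 8 are thus not particular to the annexins.

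**Figure D3:**
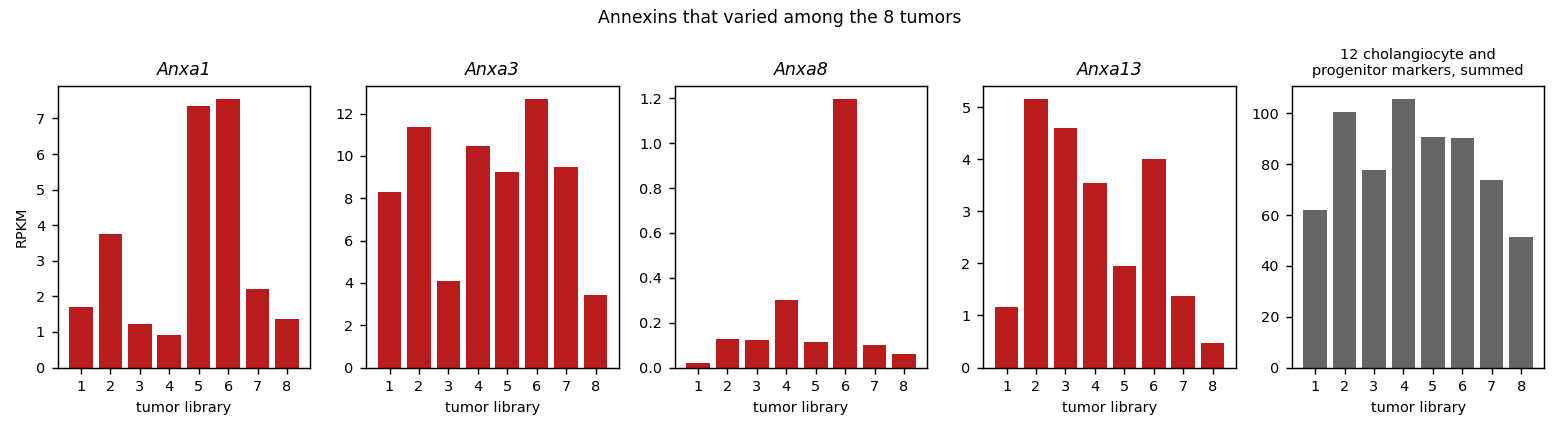
Bars show the RPKM of Anxa1, Anxa3, Anxa8 and Anxa13 in each of the 8 tumor libraries, and the summed RPKM of 12 markers of cholangiocytes and progenitors. Tumors 5 and 6 led in Anxa1, tumor 6 alone exceeded 1 RPKM of Anxa8, and tumor 8 was lowest in Anxa3, Anxa13 and the marker sum. Tumor 8 was also lowest in the total RPKM of all genes.

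Markers of other liver cells moved with these groups, and in whole tissue more cells of a type cannot be told apart from more RNA per cell. The summed RPKM of 12 markers of cholangiocytes and progenitors was 11.2 to 14.2 in LAP WT, 13.6 to 15.6 in tet-Myc livers, 26.5 to 36.9 in tet-YAP livers, 45.3 to 77.9 in double transgenic livers and 51.5 to 105.6 in tumors. Of the 9 markers tested, 4 rose with YAP alone, 6 with both transgenes and 9 in tumors, each against WT. Of all genes, 11.5%, 22.5% and 21.5% were called higher in these comparisons, and 31.3% were called lower in tumors. Cftr, a chloride channel of cholangiocytes, stayed under 0.1 RPKM in every WT, tet-Myc and tet-YAP library. The sum of 7 neutrophil markers was 0.924 to 6.03 in LAP WT and 10.4 to 72.7 in tumors, where all 7 rose. Markers of this list and of the cholangiocyte list that were low in WT may have passed the filter through groups where they were high. Their counts of markers called higher are therefore no support for a rise of either list. The summed RPKM hold all markers found and do not rest on the filter. The sum of 12 macrophage markers was 108.6 to 191.8 in WT and 75.2 to 140.3 in tumors. Of the 12, 2 were higher and 4 lower in tumors, shares near the 21.5% and 31.3% of all genes. All 8 hepatocyte markers fell in tumors, from a summed 284.0 to 407.3 RPKM to 117.9 to 212.9. The sixth-highest gene stood lower there too, at 28.7 to 38.6 RPKM against 43.0 to 67.3 in LAP WT. Abundant markers near that ceiling may read lower in deeper libraries, and its part in the fall was not tested. Total RPKM of all genes was 49933 to 68775 in tumors against 75349 to 100036 in LAP WT, so summed RPKM may read lower there. The sum of 10 endothelial markers was 18.6 to 57.6 in tumors against 80.4 to 99.4 in WT, and 7 of 10 fell. The part of these cells in the annexin differences was not tested.

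The partners of annexins were read from a list of 30 genes, of which 29 were tested in LAP. In tet-YAP livers 8 rose and 1 fell against WT, in tet-Myc/YAP livers 9 rose and 2 fell, and in tumors 13 rose and 4 fell. For all genes these shares were 11.5% and 15.3% in tet-YAP livers, 22.5% and 14.0% in tet-Myc/YAP livers, and 21.5% and 31.3% in tumors. The median log2 difference of the partners was 0.32, 0.36 and 0.42 in this order, and that of all genes was -0.10, 0.11 and -0.14. Partners that were low in WT may have passed the filter through groups where they were high. These counts and medians are therefore no support for a rise of the list. The list also holds S100a8 and S100a9, which are among the neutrophil markers. S100a11, the EF-hand partner of annexin A1, rose from 1.84, 1.62 and 1.84 RPKM in WT to 11.8, 9.11, 10.2 and 11.8 in tet-YAP (log2 difference 2.30, adjusted p = 5.01e-07). It stood at 18.5, 12.1 and 11.4 RPKM in tet-Myc/YAP (2.64, adjusted p = 6.98e-08) and at 12.7, 13.9 and 16 (lowest, median and highest) in tumors (2.68, adjusted p = 1.62e-09). S100a10, the partner of annexin A2, was at 23.5, 23.2 and 18 RPKM in WT, at 24.7, 19.5, 19.2 and 19.9 in tet-YAP and at 14.7 to 19.9 in tumors, and was called in none of the LAP comparisons. Its direction depended on the scaling. Against WT the log2 difference was -0.05 in tet-YAP (adjusted p = 0.835), 0.10 in tet-Myc/YAP (adjusted p = 0.643) and -0.33 in tumors (adjusted p = 0.0316). With quantile normalization it was 0.46 (adjusted p = 0.000151), 0.45 (adjusted p = 0.000123) and 0.46 (adjusted p = 4.44e-06) in this order, under the limit of 0.5 but with the sign turned in tet-YAP and in tumors. In reads per kilobase S100a10 lay at 34.8% to 45.0% of the sixth-highest gene in WT and at 48.4% to 61.3% in tumors, so its differences may be understated.

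**Figure D4:**
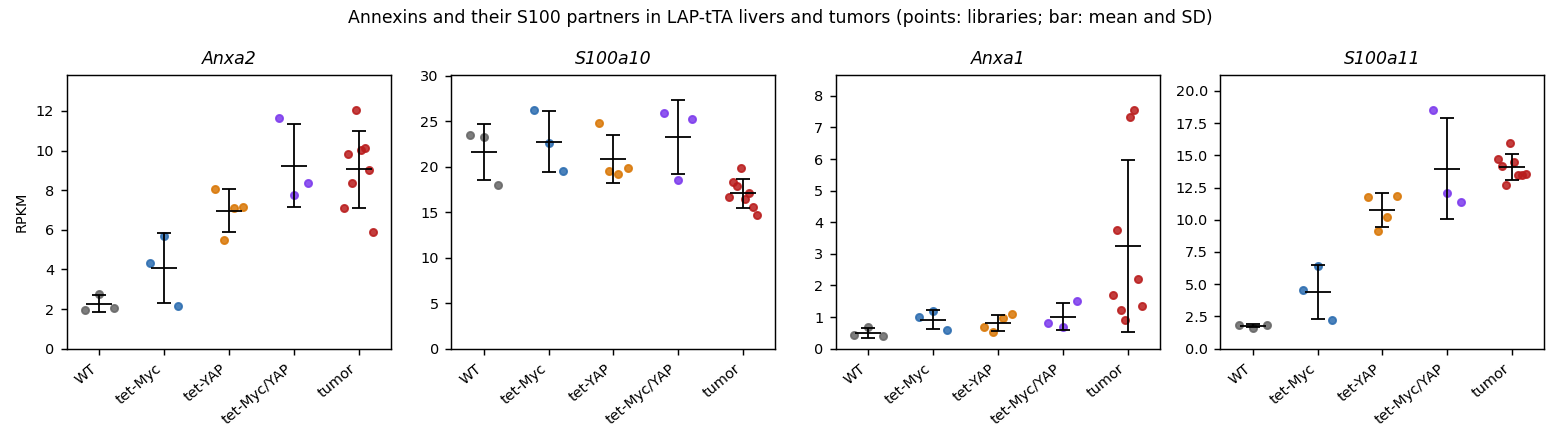
RPKM of Anxa2 and S100a10 and of Anxa1 and S100a11 in each LAP library (points) by group, with the mean and SD. S100a10 stood between 14.7 and 26.2 RPKM in all LAP libraries, while S100a11 went from under 2 RPKM in WT to above 9 in every tet-YAP, tet-Myc/YAP and tumor library.

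Other partners rose in LAP tet-YAP livers as well. Ahnak, a giant scaffold bound by the annexin A2 complex at the plasma membrane, went from a mean of 5.12 RPKM in WT to 17.2 in tet-YAP (log2 difference 1.65, adjusted p = 5.3e-06), 22.3 in tet-Myc/YAP (2.01, adjusted p = 2.25e-07) and 20.8 in tumors (1.90, adjusted p = 1.4e-08). In the plasminogen system, whose proteases annexin A2 helps to hold at the cell surface, Plau (urokinase) had a log2 difference of 1.88 with YAP, 2.13 with both transgenes and 3.0 in tumors, and its receptor gene Plaur had 1.17, 2.44 and 3.06, all called. S100a4, a binder of annexin A2, had 2.53 in tumors (adjusted p = 2.36e-07). In tumors Plat (tissue plasminogen activator) rose as well, by 1.5 (adjusted p = 0.000613), and Plg, the gene of plasminogen, fell by 0.95 (adjusted p = 0.000656). The receptors of annexin A1, Fpr1 and Fpr2, rose in tet-YAP livers (1.97, adjusted p = 0.00069, and 1.78, adjusted p = 0.00348). In tumors they were lower than in tet-YAP livers, at -2.29 (adjusted p = 5.32e-06) and -1.44 (adjusted p = 0.0017). The summed macrophage markers were 198.5 to 270.0 in tet-YAP livers, the highest range of the LAP groups. Of the 12 markers 5 rose against WT, where 11.5% of all genes were called higher.

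In R26 livers after 2 days, no annexin was called in tet-Myc or tet-YAP against WT. By limma, 0 of 7 members passed in each, with 3 of 7 at an unadjusted p under 0.05 in tet-Myc and 0 of 7 in tet-YAP, while 4.87% and 6.19% of all genes were called. In tet-YAP, rescaling moved the share of higher among called genes from 32.3% to 52.4%. Anxa5 stood at 10.6, 9.41, 12 and 11.5 RPKM in R26 WT and at 10.7, 12.4 and 17 (lowest, median and highest) in tet-YAP, with overlap (log2 difference 0.22 ± 0.12, adjusted p = 0.183). Anxa2 stood at 3.08, 2.45, 2.66 and 3.21 RPKM in WT and at 2.06, 2.26 and 3.01 in tet-YAP (log2 difference -0.22 ± 0.15, adjusted p = 0.302). Over the 7 members the log2 differences lay between -0.22 and 0.22 in tet-YAP and between -0.37 and 0.35 in tet-Myc. Without R26 tet-Myc 2, Anxa2 was called lower in tet-Myc (-0.51), and with the libraries that carry Y-linked transcripts alone Anxa2 (-0.59) and Anxa3 (-0.56) were. The systems differ in driver and in length of induction and came in separate tables, so R26 and LAP values were not tested against each other.

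In R26 tet-Myc/YAP livers 3 of 7 members were lower than in WT, in a comparison in which 37.6% of all genes were called lower and the median log2 difference of all genes was -0.39. Anxa7 stood at 8.88, 8.15, 8.62 and 9.26 RPKM in WT and at 5.53, 5.28 and 6.20 in tet-Myc/YAP, without overlap (55.2% of all genes stood lower without overlap; log2 difference -0.58 ± 0.09, adjusted p = 4.96e-05). Anxa6 went from 11.9, 11.5, 12.9 and 12.8 RPKM to 7.64, 5.88 and 9.66 (-0.66 ± 0.15, adjusted p = 0.000985). Anxa3 went from 1.81, 1.47, 1.41 and 1.59 RPKM to 0.925, 0.746 and 0.918 (-0.60 ± 0.17, adjusted p = 0.00479). The median of the 7 members was -0.45, close to that of all genes. With libraries rescaled by their median ratio the 3 log2 differences became -0.21, -0.28 and -0.33 and none was called, and the share of higher among called genes went from 10.9% to 52.6%. Anxa2 (-0.45 ± 0.18) was called as well without R26 WT 2 (-0.51) or R26 tet-Myc/YAP 1 (-0.59). Without R26 tet-Myc/YAP 2 the call of Anxa6 was lost as well (-0.49). The summed macrophage markers were 82.2 to 91.5 RPKM in tet-Myc/YAP against 182.4 to 219.9 in WT, and 11 of 12 fell. The 10 endothelial markers summed to 49.1 to 52.6 RPKM against 88.5 to 102, with 8 lower, and the 11 markers of stellate cells and fibroblasts to 36.1 to 39.9 against 61.6 to 67.8, with 5 lower. Of the 8 hepatocyte markers 4 were lower. These counts stand beside the 37.6% of all genes called lower. The median log2 differences of these 4 lists were -1.17, -0.84, -0.56 and -0.49 in this order, and that of all genes was -0.39. Total RPKM of all genes was 58152 to 68592 in tet-Myc/YAP against 85459 to 90188 in R26 WT, so summed RPKM may read lower for any list. The marker lists were not read after rescaling. The sixth-highest gene stood at 33.8 to 55.7 RPKM in tet-Myc/YAP against 52.9 to 62.3 in R26 WT. Tet-Myc/YAP 1, 2 and 3 held 45370000, 45380000 and 25990000 reads, against 26990000 to 29900000 in R26 WT. Abundant markers near that ceiling may read lower in deeper libraries. So may Anxa6, which reached up to 38.1% of the ceiling over all libraries. The part of depth was not tested. Tet-Myc/YAP 1 and 2 carry Y-linked transcripts and tet-Myc/YAP 3 carries Xist. The part of the marked cell types in the annexin differences was not tested.

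The same direction was seen against the single transgenes, whose comparisons share the tet-Myc/YAP libraries. Against tet-YAP, 4 of 7 members were lower (Anxa3 -0.64, Anxa5 -0.53, Anxa6 -0.50 and Anxa7 -0.52), with 23.2% of all genes called lower and a median of -0.27 over all genes. Against tet-Myc, Anxa6 (-0.74) and Anxa7 (-0.55) were lower, with 36.3% of all genes called lower and a median of -0.39. None of these 6 calls was kept after rescaling by the median ratio, which moved the share of higher among called genes from 15.4% to 54.6% against tet-YAP and from 11.6% to 56.8% against tet-Myc. Leaving out tet-Myc 4, the library with Myc at the WT level, ended the call of Anxa7 against tet-Myc (-0.47). Against tet-YAP, the call of Anxa7 was lost without tet-Myc/YAP 2 (-0.47), that of Anxa5 without tet-YAP 4 (-0.44) or tet-Myc/YAP 3 (-0.42), and that of Anxa6 without tet-Myc/YAP 2 (-0.33) or any of tet-YAP 1 to 4 (-0.45 to -0.50). The interaction was called for Anxa6 alone (-0.59 ± 0.19, adjusted p = 0.0253), against 21.1% of all genes called lower, and was lost without tet-Myc 3 (-0.52), without tet-Myc/YAP 2 (-0.42) and after rescaling (-0.33), which moved the share of higher among called genes from 17.4% to 56.8%.

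**Figure D5:**
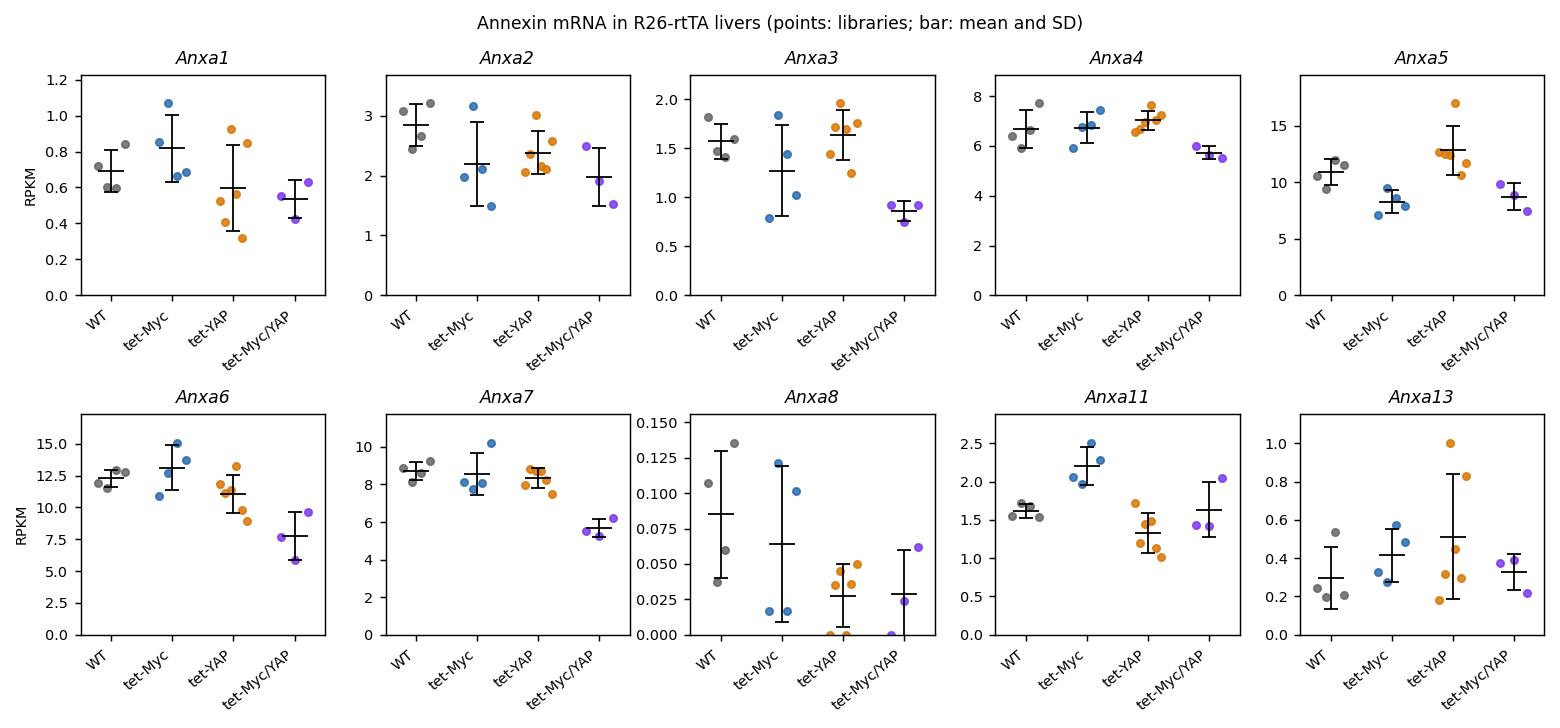
RPKM of the 10 annexins in each R26 library (points) by group, with the mean and SD. Anxa7 stood at 5.28 to 6.20 RPKM in the 3 tet-Myc/YAP libraries, below all WT libraries, and the tet-YAP libraries overlapped WT in every gene.

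Of the partners, 24 were tested in R26. In tet-Myc/YAP 13 fell and 1 rose against WT, where 37.6% of all genes fell and 4.61% rose, with 3 lower and 1 higher after rescaling by the median ratio. Chmp4b, a subunit of the ESCRT-III complex that seals membrane wounds, fell by 1.0 (adjusted p = 3.26e-07), Capn2, a calcium-activated protease, by 0.81 (adjusted p = 1.72e-06) and Vps4b, the ATPase that takes ESCRT-III apart, by 0.55 (adjusted p = 1.69e-05). All 3 calcium sensors of the penta-EF-hand group fell (Sri -0.80, Pdcd6 -0.62 and Pef1 -0.67). S100a11 was the one that rose, from 1.39, 2.06, 2.35 and 2.30 RPKM in WT to 3.72, 2.93 and 2.98 (log2 difference 0.57, adjusted p = 0.0262), and it was also called under rescaling by the median ratio (0.91, adjusted p = 0.00252). The call of S100a11 was lost without the filter on low values (adjusted p = 0.0616), with a pseudocount of 1 (0.48) and with close pairs of libraries averaged (0.53, adjusted p = 0.101).

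The 4 annexins with the largest differences in tumors were matched to the genes whose log2 values were most like theirs, by Pearson's r over the libraries of a system. This is a description, since libraries of a group share their treatment. Over the 21 LAP libraries, Anxa2 was most like Ppfibp1 (0.976), Amot (0.968), Trim44 (0.964), Ets2 (0.963) and Ccdc120 (0.959), Amot being the gene of angiomotin, a binding partner of YAP. Anxa3 was most like Fuca2 (0.961), Plekha2 (0.957), Klf7 (0.957), Pmp22 (0.954) and Unc5b (0.949). Anxa1 was most like 5031426D15Rik (0.944), Adam8 (0.941), Ms4a7 (0.938), Clcn5 (0.937) and Slc2a3 (0.935), of which Ms4a7 is a macrophage gene. Anxa13 was most like Zfp59 (0.952), Zfp553 (0.945), Gbas (0.94), Spire2 (0.935) and Gm4532 (0.934). Within the family, Anxa2 was closest to Anxa5 (0.864), Anxa4 (0.813) and Anxa3 (0.812), and its r with Anxa11 was negative (-0.615). Over the 17 R26 libraries, Anxa2 was most like Leo1 (0.855), Slc30a10 (0.836), Desi2 (0.828), Glipr2 (0.823) and Tubb2a (0.82), and Anxa3 like Gucy1b3 (0.952), Rac2 (0.944), Fam49a (0.932), Rgs2 (0.912) and Igsf6 (0.911). No gene was among the 5 nearest of Anxa2 or of Anxa3 in both systems.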

How the data were processed

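The authors made total RNA libraries with the TruSeq RNA v2 kit, which does not mark strand, and deposited RPKM for each system in a table of its own. The submitters' processing notes name TopHat2 2.0.8, featureCounts 1.4.5-p1, SAMtools and DESeq2, and the build mm9. A further deposited table holds the authors' own comparisons (fold changes and p-values) and was not used. After 27 symbols turned into dates were removed, 21644 genes remained. Depth was recovered from the steps of low values: within a tolerance of 0.12 reads, 77.1% of 29437 low values in R26 and 83.7% of 21298 in LAP came out as whole reads, so no count test was run.

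Log2(RPKM + 0.5) was tested with limma 3.58.1 in R 4.3.3 (lmFit and eBayes with trend, two-sided), in genes that reached 1 RPKM in 3 or more libraries (11263 in R26, 12591 in LAP). All libraries of a system entered one fit, without covariates, and p-values were adjusted by Benjamini-Hochberg over all genes of a comparison. The 15 comparisons set each group against WT and double against single transgenes, and include the interaction, the difference between the effect of Myc with YAP and without. The tests were tested on simulated data. Table columns carry a group but no tie to a numbered sample, so library numbers follow column order within a group and only name a library. Some libraries of a group lay close together in pairs. Every R26 WT library and every R26 tet-YAP library had such a close partner. A further pair was found within each of LAP WT, LAP tet-YAP and the R26 double transgenic group. The closest pair was R26 WT 2 and 3. By the median over genes, the squared differences of their counts were 1.024 times those of sampling noise. By the mean over 3107 genes with a single annotated transcript they were 1.482 times, which is more than sampling noise. Paired libraries were kept apart in the main fits. If they are repeats of the same animal, n counts libraries and not animals, which was not tested. Counts with these pairs averaged are given below.

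The members and lists were chosen with earlier results of these data known. Named were all members, Myc and Yap1, the up to 4 partners with the smallest adjusted p in a comparison, S100a10 and S100a11, and the 5 genes most like each of 4 annexins. Fpr2, Plaur, Plat, Plg, Sri and Pdcd6 were named in addition where that rule did not take them, after their values were seen. Alternatives were pseudocounts of 0.1 and 1, no filter, median-ratio scaling, quantile normalization, the sex pattern as a covariate, the groups of a comparison alone, and each library left out. Libraries of one sex pattern alone and close pairs averaged were added after the data were seen.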

Additional observations from a re-analysis of the deposited data

Results flagged for a closer look

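In 60 sets, each the values of 1 gene in 1 group of 4 to 8 libraries, 6 held a library far from the others by Dixon's test at 95%, where chance gives about 1 in 20. Anxa5 reached 17 RPKM in R26 tet-YAP 4, with the next library at 12.7. Anxa7 reached 10.2 RPKM in R26 tet-Myc 4, the library with Myc at the WT level, with the next at 8.14. Anxa13 reached 0.539 RPKM in R26 WT 3, on an estimated 17.5 reads, with the next at 0.243. Among tumors, Anxa6 fell to 6.28 RPKM in tumor 8, with the next at 9.71, and Anxa8 reached 1.2 RPKM in tumor 6, with the next at 0.299. Tumor 8 also had the lowest total RPKM of all genes among the tumors. S100a10 reached 24.7 RPKM in LAP tet-YAP 1, with the next at 19.9.

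The interaction term, which sets the effect of Myc with YAP against that without, was called for 2 members (limma, adjusted over all genes). For Anxa13 in LAP it was 2.99 (adjusted p = 0.0122), where 15.7% of all genes were called in either direction. It was not called without tet-Myc/YAP 1 (2.70, adjusted p = 0.052). On libraries with Xist, where tet-YAP and tet-Myc are each a single library, the value was 3.52. Mouse Myc in LAP tet-Myc lay within the range of LAP WT, so the tet-Myc transgene could not be checked there. For Anxa6 in R26 the interaction was -0.59 (adjusted p = 0.0253), where 21.1% of all genes were called lower. It was not called with median-ratio scaling (-0.33), with quantile normalization (-0.29), without the filter (-0.59, adjusted p = 0.0552), with close pairs averaged (-0.50, adjusted p = 0.162) or without tet-Myc 3 (-0.52) or tet-Myc/YAP 2 (-0.42).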

How the results depend on the processing

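Of the 39 calls of a member in a comparison, 14 were kept under every alternative that was run, 25 were lost under at least 1, and none changed direction. The calls kept were 39 with a pseudocount of 0.1, 39 with the sex pattern as covariate, 37 without the filter, 36 of 38 with the groups of a comparison alone, 32 with close pairs averaged, 31 with a pseudocount of 1, 27 with median-ratio scaling, 26 with quantile normalization and 23 within one sex pattern. The cause of these losses was not tested. Fits within one sex pattern also held fewer libraries, and the parts of sex and of library number cannot be told apart there. In LAP these fits held a single tet-YAP and a single tet-Myc library, so their counts in comparisons with these groups say little about sex. Counts of members called in R26 tet-Myc/YAP against WT went from 3 to 0 with median-ratio scaling and to 0 with quantile normalization. Against tet-YAP they went from 4 to 0 and 0 with these scalings, to 1 with a pseudocount of 1 and to 1 with close pairs averaged. Against tet-Myc they went from 2 to 0 with median-ratio scaling and 1 with quantile normalization, which lost Anxa6 and Anxa7 and gained Anxa5 (0.57). The R26 interaction went from 1 to 0 under both scalings, without the filter and with close pairs averaged, and to 2 with a pseudocount of 0.1 and within one sex pattern. R26 tet-Myc against WT went from 0 to 2 within one sex pattern. In LAP, counts within one sex pattern went from 3 to 1 in tet-YAP against WT, from 2 to 0 in tet-Myc/YAP against tet-YAP, from 5 to 3 against tet-Myc, from 1 to 0 in the interaction, from 3 to 0 in tumors against tet-YAP and from 2 to 1 in tumors against tet-Myc/YAP. Tet-Myc/YAP against tet-YAP also went to 1 with a pseudocount of 1, quantile normalization and close pairs averaged, and the LAP interaction to 2 with quantile normalization and with the groups alone. Leaving out each library gave 0 to 1 members in R26 tet-Myc against WT, 0 to 0 in R26 tet-YAP, 2 to 4 in R26 tet-Myc/YAP against WT and against tet-YAP, 1 to 2 against tet-Myc and 0 to 3 in the R26 interaction. In LAP it gave 0 to 2 in tet-Myc, 3 to 3 in tet-YAP, 5 to 6 in tet-Myc/YAP against WT, 1 to 2 against tet-YAP, 4 to 4 against tet-Myc, 0 to 2 in the interaction, and 6 to 7, 2 to 3 and 1 to 4 in tumors against WT, tet-YAP and tet-Myc/YAP. The tumor count of 4 came without tet-Myc/YAP 2, where Anxa5 (-0.54) and Anxa6 (-0.51) were called lower.

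The counts of all genes called moved by over 1.5 times in several comparisons. In R26 tet-Myc/YAP against WT, tet-YAP and tet-Myc they were 4751, 3085 and 4630 against 2374, 1783 and 2198 with median-ratio scaling and 2244, 1936 and 2197 with quantile normalization, and in the R26 interaction 2883 against 1676 and 1839, and 1279 with close pairs averaged. Averaging close pairs took R26 tet-Myc against WT from 548 to 56 genes and R26 tet-YAP from 697 to 27, and R26 tet-Myc had 317 to 906 under other alternatives, the latter within one sex pattern. LAP tet-Myc against WT had 0 to 46 genes, and 225 without tet-Myc 3. LAP tet-YAP against WT went from 3373 to 1710 with quantile normalization, 1798 with close pairs averaged, 1651 without WT 1 and 96 within one sex pattern. Within one sex pattern, LAP tet-Myc/YAP went to 2738, 586 and 1474 against WT, tet-YAP and tet-Myc, and tumors to 574 against tet-YAP and 2277 against tet-Myc/YAP. The LAP interaction ran from 63 within one sex pattern to 3542 with the groups alone (1975 as reported), at 219 without tet-Myc/YAP 1. Without that library, tet-Myc/YAP against tet-YAP and tet-Myc had 1753 and 2233 genes, and tumors against it 2627, which was 2582 and 2530 under the scalings. No paired analysis was possible because the table columns carry no tie to a replicate number.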
